A study of Caenorhabditis elegans with 14 samples.

Results

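The sensory cilium genes of *C. elegans* were described here in animals exposed to the pathogen *Enterococcus faecalis* or to the laboratory food *Escherichia coli*. They were chosen by symbol alone, as every gene of the deposited count table named *che*, *dyf*, *bbs*, *ift*, *xbx* or *mks* with a number. The rule found 44 of 21982 listed genes and used no measured value. Of these, 42 had enough reads to be tested among 15685 genes, and *che-1* and *che-6* did not (mean counts 1.71 and 4.21 per library). RNA from whole animals was sequenced after 16 h of exposure from the L4 stage. The 4 groups were *skpo-1*(0) on *E. faecalis* OG1RF (4 libraries), *skpo-1*(0) on *E. coli* OP50 (3), N2 wild type on *E. faecalis* OG1RF (3) and N2 on *E. coli* OP50 (4). The mutant is a single strain with a deletion allele of *skpo-1*, which encodes a peroxidase of the hypodermis, and the animals of a plate were pooled.

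Cilia of *C. elegans* stand at the dendrite tips of sensory neurons, and other cells of the adult hermaphrodite have none. Cargo moves along the cilium by intraflagellar transport (IFT). Kinesins carry the particles IFT-B and IFT-A outward, cytoplasmic dynein carries them back, and the BBSome holds the particle together. At the base, the transition zone decides which proteins enter. Loss of these genes gives animals that fail to find chemicals (*che*) or to fill their sensory neurons with dye (*dyf*). Many cilium genes carry an X-box in the promoter, bound by the transcription factor DAF-19, and *xbx* genes were named for it. In whole animals these transcripts are rare, and a lower share of sensory neurons in the RNA and less RNA per neuron cannot be told apart.

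The libraries held 15174830 to 36682565 counts, of which 2384 to 8830 fell on the 44 cilium genes. *skpo-1* itself was at 1.62 to 2.26 CPM, counts per 1000000 counts, in the mutant on *E. faecalis* and 2.35 to 2.66 CPM on *E. coli*, against 112 to 199 CPM and 283 to 314 CPM in N2. Replicate 2 of N2 on *E. coli* stood apart, with 11128 CPM summed over 19 germline genes and 1755 CPM over 9 body muscle genes. Its group's medians were 22746 and 5865 CPM. Replicate 4 of *skpo-1* on *E. faecalis* was also low in both, at 10545 and 1440 CPM, beside group medians of 15796 and 2907 CPM. The main counts are also given without the N2 library, and the *skpo-1* count also without the *skpo-1* library. Levels are CPM with the library size scaled by trimmed means, listed in the order of replicate numbers.

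Cilium gene transcripts were low. Per kilobase of exon, the median over the 44 genes was 0.577 CPM, and 34 lay below 1. *xbx-6* was highest (46.6 CPM per kb), followed by *ift-43* (13.6), *dyf-3* (10.2), *dyf-17* (6.09) and *che-10* (3.99). *xbx-6* alone made up 43% of the summed CPM. Without *xbx-6*, the other 43 genes summed to 118.8 ± 21.2 CPM in *skpo-1* on *E. faecalis* (SD, n = 4), against 80.1 ± 6.5 CPM in *skpo-1* on *E. coli* (n = 3). In N2 the sums were 165 ± 32.0 CPM on *E. faecalis* (n = 3) and 92.6 ± 16.7 CPM on *E. coli* (n = 4). In both genotypes the lowest sum on *E. faecalis* (99.5 and 133 CPM) lay above the highest on *E. coli* (84.5 and 109 CPM).

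Whether the cilium genes shifted as a whole on the pathogen was asked first. All cilium genes that passed the test were higher on *E. faecalis*, in both genotypes. A gene was called higher or lower where edgeR's quasi-likelihood test gave a Benjamini-Hochberg adjusted P under 0.05 and the log2 fold change (log2FC) was 1 or more in size. By this rule 14 of 42 genes were higher in *skpo-1* on *E. faecalis* than on *E. coli*, beside 10% of all genes tested, and 0 were lower, beside 1.76%. In N2 27 of 42 were higher, beside 19.2% of all genes, and 0 were lower, beside 4.10%. At an unadjusted P below 0.05, 0 cilium genes were lower in *skpo-1*, beside 2427 of all 15685 genes. In N2 2 were lower, *ift-43* and *xbx-6*, beside 3170 of all genes. DESeq2 called 0 cilium genes lower in either genotype. Of all genes it called 767 lower in N2 and fewer in *skpo-1*. By adjusted P alone the counts of higher genes were 14 in *skpo-1* (all genes 12.9%) and 29 in N2 (all genes 23.6%). The log2FC was above 0 for 41 genes in *skpo-1* and 39 in N2, beside 55.7% and 51.2% of all genes. The median log2FC was 1.15 in *skpo-1* and 1.25 in N2, against 0.12 and 0.03 over all genes. All libraries on *E. faecalis* lay above all those on *E. coli* for 24 genes in *skpo-1* (all genes 25.6%) and for 27 in N2 (all genes 22.6%). For 1 gene, *xbx-6*, they lay below in *skpo-1* (3153 of all 15685 genes), and for 0 in N2 (2336 of all genes).

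The count in *skpo-1* rested on single libraries. Without replicate 1 of *skpo-1* on *E. coli* 1 gene was called higher, *xbx-1*, which is not among the 14, and the share of all genes called higher was 3.76%. Without replicate 2 or 4 of *skpo-1* on *E. faecalis* the count was 9 (all genes 6.64% and 6.68%). In N2 it was 15 without replicate 2 on *E. faecalis* (all genes 13.8%). Without replicate 2 of N2 on *E. coli*, the N2 library that stood apart, the counts were 23 in *skpo-1* (all genes 13.1%) and 31 in N2 (all genes 23.4%). The groups of N2 then did not overlap for 35 genes in place of 27 (all genes 33.1%). Over all fits that left out 1 library, the median log2FC ran from 0.99 to 1.23 in *skpo-1* and from 1.17 to 1.50 in N2.

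**Figure D1:**
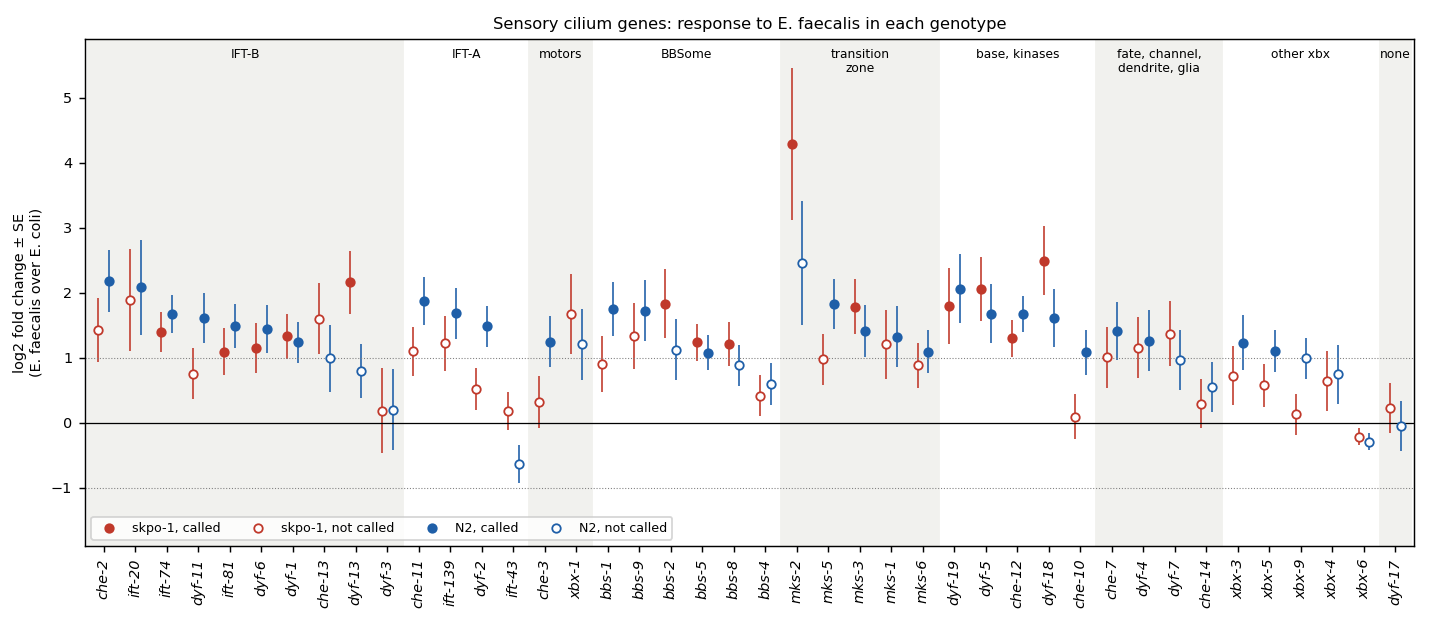
Log2FC of *E. faecalis* over *E. coli* with its standard error for the 42 tested cilium genes, by role, in *skpo-1* (red, left) and N2 (blue, right). Filled points were called, 14 in *skpo-1* and 27 in N2, dotted lines mark a log2FC of 1 and -1, and all but *xbx-6* in *skpo-1* and *xbx-6*, *ift-43* and *dyf-17* in N2 lie above 0.

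The IFT-B particle carries cargo toward the tip, and 5 of its 10 listed subunits were called higher in *skpo-1* and 7 in N2. *ift-74* (chrII:6680024-6683544, WBcel235, as for all positions) encodes a core subunit whose human counterpart binds tubulin together with IFT81. It had 1.51, 1.91, 2.01 and 1.57 CPM in *skpo-1* on *E. faecalis*, against 0.56, 0.626 and 0.839 CPM in *skpo-1* on *E. coli*. In N2 it had 2.16, 2.38 and 2.14 CPM on *E. faecalis*, against 0.476, 0.837, 0.852 and 0.553 CPM on *E. coli*. In both genotypes every library on *E. faecalis* lay above every library on *E. coli*. The log2FC was 1.39 ± 0.31 (SE) in *skpo-1* and 1.67 ± 0.29 in N2 (adjusted P = 0.00795 and 0.00115, edgeR's quasi-likelihood test).

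*ift-81* (chrX:5298561-5306542), its partner, had 1.29, 1.91, 1.95 and 1.3 CPM in *skpo-1* on *E. faecalis*, against 0.964, 0.626 and 0.629 CPM in *skpo-1* on *E. coli*. N2 animals showed 1.55, 3.35 and 2.01 CPM on *E. faecalis*, against 0.885, 0.89, 0.93 and 0.553 CPM on *E. coli*, and neither genotype's groups overlapped. Its log2FC was 1.09 ± 0.36 in *skpo-1* (adjusted P = 0.0443) and 1.49 ± 0.34 in N2 (adjusted P = 0.00484). *dyf-1* (chrI:4989548-4994675), the IFT70 subunit required for the OSM-3 kinesin to move the particle, had 2.22, 2.72, 2.07 and 2.44 CPM in *skpo-1* on *E. faecalis*, against 0.684, 0.822 and 1.4 CPM in *skpo-1* on *E. coli*. In N2 its levels were 2.38, 2.99 and 2.69 CPM on *E. faecalis*, against 0.885, 1.78, 0.93 and 0.861 CPM on *E. coli*. The groups were apart in both genotypes, with replicate 2 of N2 on *E. coli* the highest of its group. The log2FC of *dyf-1* was 1.33 ± 0.34 in *skpo-1* and 1.24 ± 0.32 in N2 (adjusted P = 0.0176 and 0.00925).

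*dyf-6* (chrX:10379693-10386508), the IFT46 subunit, had 1.47, 2.27, 0.942 and 2.44 CPM in *skpo-1* on *E. faecalis*, against 0.653, 0.822 and 0.979 CPM in *skpo-1* on *E. coli*. Replicate 3 on *E. faecalis* lay below replicate 3 on *E. coli* there. In N2 it had 1.5, 3.05 and 2.31 CPM on *E. faecalis*, against 0.749, 0.968, 0.659 and 0.983 CPM on *E. coli*, with no overlap. It was called higher in both (log2FC 1.15 ± 0.38 and 1.44 ± 0.36, adjusted P = 0.0462 in *skpo-1* and 0.00769 in N2). *dyf-6* shares 153 exon bases with *rme-4* on the same strand, so reads there could come from either gene.

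Called in a single genotype were *dyf-13*, *che-2*, *dyf-11* and *ift-20*. The IFT56 subunit is encoded by *dyf-13* (chrII:7168793-7171355), which had 0.666, 1.17, 1 and 0.904 CPM in *skpo-1* on *E. faecalis*, against 0.187, 0.274 and 0.14 CPM in *skpo-1* on *E. coli*. Its levels in N2 were 0.53, 0.975 and 0.923 CPM on *E. faecalis*, against 0.272, 0.785, 0.465 and 0.246 CPM on *E. coli*. In N2 the groups overlapped through replicate 2 on *E. coli*, and in *skpo-1* they did not. Its log2FC was 2.16 ± 0.48 in *skpo-1* (adjusted P = 0.00828) and 0.79 ± 0.42 in N2 (adjusted P = 0.143). The difference between the genotypes' responses was 1.37 ± 0.64 and did not pass (adjusted P = 0.639).

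*che-2* (chrX:481450-486504), the IFT80 subunit, had 0.711, 1.26, 1.51 and 1.34 CPM in *skpo-1* on *E. faecalis*, against 0.342, 0.626 and 0.35 CPM in *skpo-1* on *E. coli*. In N2 it stood at 1.28, 1.68 and 1.55 CPM on *E. faecalis*, against 0.272, 0.602, 0.271 and 0.0615 CPM on *E. coli*. No groups overlapped, yet only the N2 response passed (log2FC 2.18 ± 0.47, adjusted P = 0.0036, against 1.43 ± 0.49 and 0.0521 in *skpo-1*). *dyf-11* (chrX:763752-766739), the IFT54 subunit, had 1.07, 1.82, 1.95 and 1.18 CPM in *skpo-1* on *E. faecalis*, against 0.746, 1.37 and 0.489 CPM in *skpo-1* on *E. coli*, and these groups overlapped. N2 held 1.9, 2.74 and 1.85 CPM on *E. faecalis*, against 0.953, 0.706, 0.736 and 0.43 CPM on *E. coli*, without overlap. The log2FC of *dyf-11* was 0.75 ± 0.39 in *skpo-1* and 1.61 ± 0.38 in N2 (adjusted P = 0.168 and 0.00567). *ift-20*, at 0 to 26 counts per library, was called in N2 (log2FC 2.08 ± 0.74, adjusted P = 0.0378), and *che-13*, the IFT57 subunit, in neither (log2FC 1.60 in *skpo-1* and 0.99 in N2).

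The IFT-A particle works in the return to the cell body. Of its 4 listed subunits, 0 were called in *skpo-1* and 3 in N2. *che-11* (chrV:12144244-12150707), the IFT140 subunit, had 1.69, 2.3, 1.82 and 2.24 CPM in *skpo-1* on *E. faecalis*, against 0.466, 1.53 and 0.839 CPM in *skpo-1* on *E. coli*. In N2 it had 2.6, 3.72 and 2.8 CPM on *E. faecalis*, against 0.749, 0.837, 0.581 and 1.17 CPM on *E. coli*. No library on *E. coli* reached its genotype's lowest on *E. faecalis*. The N2 response passed (log2FC 1.87 ± 0.37, adjusted P = 0.0021), and that of *skpo-1* did not (1.10 ± 0.38, adjusted P = 0.0537).

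*dyf-2* (chrIII:13674879-13686445), the IFT144 subunit, had 3.33, 5.77, 5.96 and 2.63 CPM in *skpo-1* on *E. faecalis*, against 2.64, 3.76 and 2.87 CPM in *skpo-1* on *E. coli*. Replicate 4 on *E. faecalis* lay below all 3 libraries on *E. coli* there. N2 animals held 4.99, 8.44 and 7.38 CPM on *E. faecalis*, against 2.11, 2.07, 3.22 and 2.52 CPM on *E. coli*, well apart. Its log2FC was 0.51 ± 0.32 in *skpo-1* and 1.48 ± 0.32 in N2 (adjusted P = 0.252 and 0.00326). *ift-139* (chrIII:6032563-6039470) had 1.51, 2.27, 1.44 and 1.34 CPM in *skpo-1* on *E. faecalis*, against 0.466, 1.14 and 0.489 CPM in *skpo-1* on *E. coli*. Its N2 levels were 2.52, 3.02 and 2.36 CPM on *E. faecalis*, against 0.34, 0.706, 1.08 and 1.11 CPM on *E. coli*. Neither pair of groups overlapped, and the log2FC was 1.22 ± 0.42 in *skpo-1* (adjusted P = 0.053) and 1.68 ± 0.40 in N2 (adjusted P = 0.00552). *ift-43* was the exception, with 7.99 to 9.98 CPM in *skpo-1* on *E. faecalis*, against 6.34 to 10.4 CPM on *E. coli*, and 5.64 to 8.22 CPM in N2 on *E. faecalis*, against 7.74 to 18.1 CPM on *E. coli*. Its log2FC was 0.18 in *skpo-1* and -0.64 in N2 (adjusted P = 0.678 and 0.0963).

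Of the dynein that returns the particles, the heavy chain gene *che-3* was called higher in N2 (log2FC 1.25 ± 0.39, adjusted P = 0.0225) and not in *skpo-1* (0.31 ± 0.40, adjusted P = 0.586). The light intermediate chain gene *xbx-1* was called in neither, with log2FC 1.67 ± 0.61 and 1.21 ± 0.55 at 1 to 28 counts per library.

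**Figure D2:**
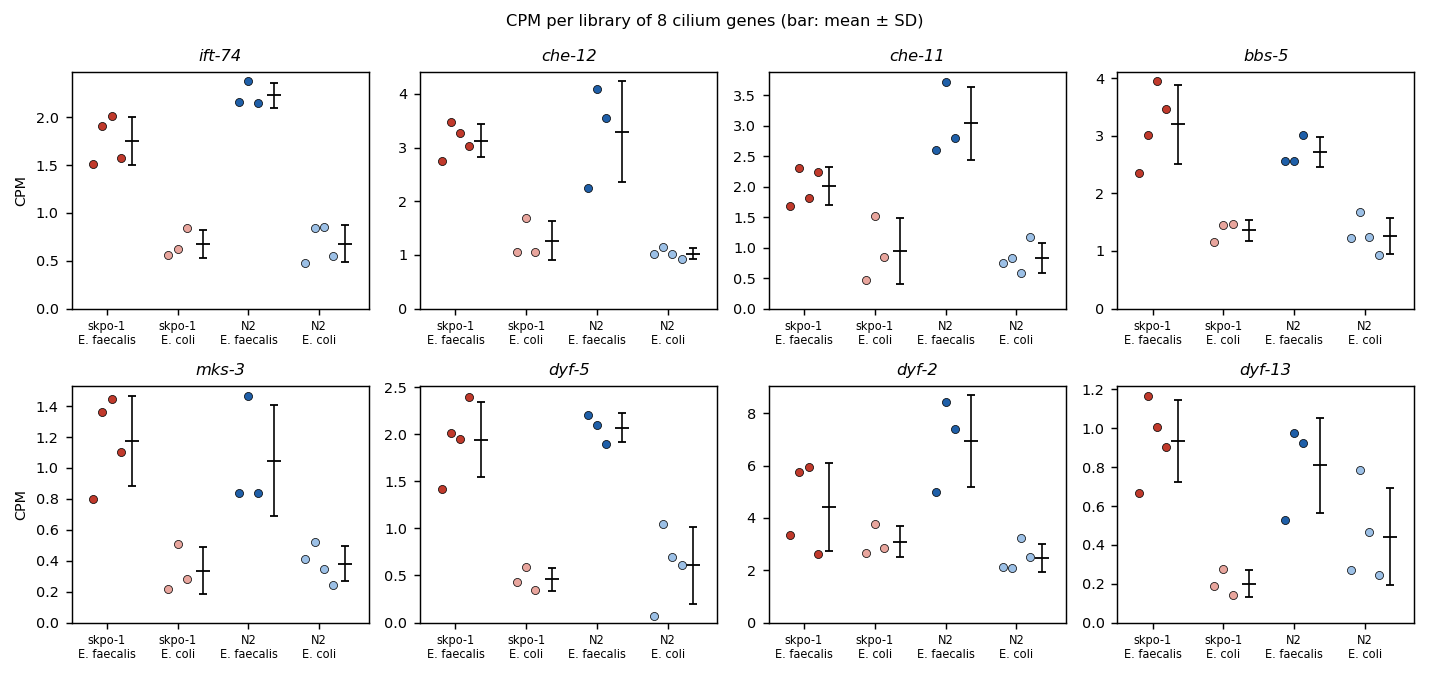
CPM per library (linear axes from 0) of 8 cilium genes in *skpo-1* on each bacterium (*E. faecalis* left of *E. coli*) and in N2 likewise, with points for libraries and bars for mean ± SD. *ift-74*, *che-12*, *bbs-5*, *mks-3* and *dyf-5* are higher on *E. faecalis* without overlap in both genotypes, while *dyf-2* overlaps in *skpo-1* and *dyf-13* in N2.

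The BBSome is a coat that helps load membrane proteins onto the transport particles, and mutations of its subunits cause Bardet-Biedl syndrome in humans. Of 6 listed subunits, 3 were called higher in *skpo-1* and 3 in N2. *bbs-5* (chrIII:10258831-10261782), the subunit whose human counterpart binds membrane lipids, had 2.35, 3.01, 3.96 and 3.46 CPM in *skpo-1* on *E. faecalis*, against 1.15, 1.45 and 1.47 CPM in *skpo-1* on *E. coli*. The N2 libraries gave 2.56, 2.56 and 3.01 CPM on *E. faecalis*, against 1.23, 1.67, 1.24 and 0.922 CPM on *E. coli*. Both pairs of groups were apart, and both responses passed (log2FC 1.24 ± 0.28 in *skpo-1* and 1.08 ± 0.27 in N2, adjusted P = 0.00948 and 0.00786).

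*bbs-8* (chrV:6762467-6765072) had 1.07, 1.78, 1.7 and 1.53 CPM in *skpo-1* on *E. faecalis*, against 0.591, 0.626 and 0.769 CPM in *skpo-1* on *E. coli*. In N2 the levels were 1.19, 2.04 and 1.66 CPM on *E. faecalis*, against 1.02, 1.1, 0.775 and 0.615 CPM on *E. coli*. These groups did not overlap either, and its log2FC was 1.21 ± 0.34 in *skpo-1* (adjusted P = 0.0234) and, short of the fold required, 0.88 ± 0.31 in N2 (adjusted P = 0.0379). *bbs-2* (chrIV:7934033-7937749) had 1.29, 0.972, 0.691 and 1.77 CPM in *skpo-1* on *E. faecalis*, against 0.311, 0.548 and 0.0699 CPM in *skpo-1* on *E. coli*. N2 animals held 1.63, 1.34 and 0.896 CPM on *E. faecalis*, against 0.34, 0.916, 0.504 and 0.492 CPM on *E. coli*, where replicate 2 on *E. coli* overlapped replicate 3 on *E. faecalis*. The *skpo-1* response of *bbs-2* passed (1.83 ± 0.53, adjusted P = 0.0275) and that of N2 did not (1.12 ± 0.48, adjusted P = 0.0732).

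*bbs-1* (chrI:14371138-14376086) had 0.444, 1.1, 0.816 and 0.943 CPM in *skpo-1* on *E. faecalis*, against 0.404, 0.391 and 0.559 CPM in *skpo-1* on *E. coli*, with replicate 1 on *E. faecalis* among the *E. coli* libraries. N2 had 1.59, 1.37 and 1.06 CPM on *E. faecalis*, against 0.749, 0.262, 0.387 and 0.246 CPM on *E. coli*, without overlap. It was called in N2 (log2FC 1.75 ± 0.42, adjusted P = 0.00607) and not in *skpo-1* (0.90 ± 0.44, adjusted P = 0.142). *bbs-9* was likewise called in N2 alone (log2FC 1.73, against 1.33 in *skpo-1*), and *bbs-4* in neither (log2FC 0.42 in *skpo-1* and 0.59 in N2).

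The transition zone is the gate between cilium and dendrite, and 2 of its 5 listed genes were called higher in *skpo-1* and 4 in N2. *mks-5* (chrII:10720231-10729329), which encodes the scaffold on which the other zone proteins assemble, had 1.87, 2.82, 2.32 and 1.85 CPM in *skpo-1* on *E. faecalis*, against 0.84, 1.61 and 0.909 CPM in *skpo-1* on *E. coli*. Wild-type levels were 2.52, 3.44 and 2.63 CPM on *E. faecalis*, against 0.953, 0.916, 1.05 and 0.246 CPM on *E. coli*. Neither pair overlapped. The log2FC was 0.98 ± 0.39 in *skpo-1* (adjusted P = 0.0866) and 1.83 ± 0.39 in N2 (adjusted P = 0.00318).

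*mks-3* (chrII:7580144-7583655), the membrane protein meckelin, had 0.799, 1.36, 1.44 and 1.1 CPM in *skpo-1* on *E. faecalis*, against 0.218, 0.509 and 0.28 CPM in *skpo-1* on *E. coli*. Its levels in N2 were 0.839, 1.46 and 0.841 CPM on *E. faecalis*, against 0.408, 0.523, 0.349 and 0.246 CPM on *E. coli*. All libraries on *E. faecalis* were above those on *E. coli*, with log2FC 1.79 ± 0.42 in *skpo-1* and 1.41 ± 0.40 in N2 (adjusted P = 0.0115 and 0.0132). It shares 154 exon bases with *F35D2.6* on the opposite strand. *mks-2* (chrII:6218622-6219446), another membrane protein of the gate, was barely detected. It had 0.0444, 0.648, 0.188 and 0.511 CPM in *skpo-1* on *E. faecalis*, against 0, 0.0391 and 0 CPM in *skpo-1* on *E. coli*, and 0.0883, 0.427 and 0.19 CPM in N2 on *E. faecalis*, against 0, 0.0785, 0.0387 and 0 CPM in N2 on *E. coli*. The *skpo-1* libraries held 37 counts on *E. faecalis* and 1 count on *E. coli*, a ratio of 28.1 with an exact 95% interval of 4.74 to 1140 that covers counting error only. It passed in *skpo-1* (adjusted P = 0.0221) and not in N2 (adjusted P = 0.0533), although no groups overlapped. *mks-1* and *mks-6* were called in N2 (log2FC 1.33 and 1.09) and not in *skpo-1* (1.21 and 0.88).

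Of the genes of the cilium base, microtubules and kinases, 4 of 5 were called higher in *skpo-1* and 5 of 5 in N2. *che-12* (chrV:10299472-10307383), a tubulin-binding protein of the Crescerin family, had 2.75, 3.47, 3.26 and 3.03 CPM in *skpo-1* on *E. faecalis*, against 1.06, 1.68 and 1.05 CPM in *skpo-1* on *E. coli*. N2 levels were 2.25, 4.08 and 3.56 CPM on *E. faecalis*, against 1.02, 1.15, 1.01 and 0.922 CPM on *E. coli*. The groups were far apart in both, and in N2 *che-12* had the smallest adjusted P of the cilium genes (log2FC 1.30 ± 0.29 in *skpo-1* and 1.68 ± 0.28 in N2, adjusted P = 0.00804 and 0.000891).

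The kinases DYF-5 and DYF-18 limit cilium length. *dyf-5* (chrI:9359067-9364238) had 1.42, 2.01, 1.95 and 2.4 CPM in *skpo-1* on *E. faecalis*, against 0.435, 0.587 and 0.35 CPM in *skpo-1* on *E. coli*. N2 levels were 2.21, 2.1 and 1.9 CPM on *E. faecalis*, against 0.0681, 1.05, 0.697 and 0.615 CPM on *E. coli*. No groups overlapped, and both responses passed (2.05 ± 0.50 in *skpo-1* and 1.68 ± 0.45 in N2, adjusted P = 0.0126 and 0.011). *dyf-18* (chrIV:11798654-11801178) had 0.666, 0.94, 0.816 and 0.865 CPM in *skpo-1* on *E. faecalis*, against 0.0622, 0.235 and 0.14 CPM in *skpo-1* on *E. coli*. In N2 it stood at 0.662, 1.37 and 0.76 CPM on *E. faecalis*, against 0.136, 0.235, 0.504 and 0.307 CPM on *E. coli*. It too was apart in both genotypes (log2FC 2.50 ± 0.53 in *skpo-1* and 1.61 ± 0.45 in N2, adjusted P = 0.00649 and 0.0132). *dyf-5* shares 140 exon bases with *ppfr-1* on the opposite strand.

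*dyf-19* (chrV:19625049-19630761), a protein of the transition fibers, had 1.02, 1.56, 2.26 and 0.747 CPM in *skpo-1* on *E. faecalis*, against 0.622, 0.235 and 0.28 CPM in *skpo-1* on *E. coli*. The N2 libraries held 2.34, 2.38 and 1.79 CPM on *E. faecalis*, against 0.476, 0.863, 0.542 and 0.0615 CPM on *E. coli*. Again no groups overlapped, with log2FC 1.80 ± 0.58 in *skpo-1* (adjusted P = 0.0428) and 2.06 ± 0.53 in N2 (adjusted P = 0.00878). *che-10*, which encodes rootletin, the protein of the fiber under the cilium, was at 12.9 to 38.8 CPM in *skpo-1* on *E. faecalis*, against 18.9 to 27 CPM on *E. coli*. In N2 it was at 34.9 to 52.6 CPM on *E. faecalis*, against 10.4 to 28.0 CPM on *E. coli*. It was called in N2 (log2FC 1.08 ± 0.35, adjusted P = 0.0245) and not in *skpo-1* (0.09 ± 0.35, adjusted P = 0.864).

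Genes whose names share the phenotype but whose products act outside transport followed in N2 in part. The innexin gene *che-7* and *dyf-4*, required for the glial compartment around the cilia, were called higher in N2 (log2FC 1.41 and 1.26) and not in *skpo-1* (1.003 and 1.16). *dyf-7*, the matrix protein that anchors dendrite tips, had log2FC 1.37 and 0.96, and *che-14* 0.29 and 0.55, in *skpo-1* and N2, and passed in neither. *che-1*, the transcription factor of the ASE taste neurons, had 0 to 6 counts per library and *che-6* 1 to 9, and their responses were not tested. In *skpo-1*, *che-6* was at 0.157 to 0.314 CPM on *E. faecalis*, against 0.14 to 0.157 CPM on *E. coli*. In N2 *che-6* was at 0.177 to 0.217 CPM on *E. faecalis*, against 0.0387 to 0.123 CPM on *E. coli*. Of the other *xbx* genes, *xbx-3* and *xbx-5* were called in N2 (log2FC 1.23 and 1.11), *xbx-9* passed the adjusted P alone (0.99), and 0 of 5 were called in *skpo-1*. *xbx-6*, the most abundant, had 77.2 to 82.0 CPM in *skpo-1* on *E. faecalis*, against 83.5 to 99.0 CPM on *E. coli*, and 68.7 to 84.2 CPM in N2 on *E. faecalis*, against 78.0 to 106 CPM on *E. coli*. Its log2FC was -0.22 ± 0.13 in *skpo-1* and -0.30 ± 0.13 in N2 (adjusted P = 0.236 and 0.0861). Without replicate 2 of N2 on *E. coli* the N2 value passed the adjusted P alone, at -0.39 ± 0.10 (adjusted P = 0.00749), the only cilium gene then lower by that measure.

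The 2 responses share no library, but 1 fit set the spread for both. Called higher in both were 10 genes, *bbs-5*, *che-12*, *dyf-1*, *dyf-5*, *dyf-6*, *dyf-18*, *dyf-19*, *ift-74*, *ift-81* and *mks-3*. They are 71.4% of the 14 in *skpo-1*, where 64.3% of all 42 were called in N2. They are 37% of the 27 in N2, where 33.3% of all 42 were called in *skpo-1*. Over all genes the overlap was 1029, or 65.4% and 34.2% of the lists. Without replicate 2 of N2 on *E. coli* the overlap was 23, all of the 23 then called in *skpo-1*, where 73.8% of all 42 were called in N2. They are 74.2% of the 31 in N2, where 54.8% of all 42 were called in *skpo-1*. Over all genes the overlap was then 77.3% and 43.4% of the lists, where 23.4% were called in N2 and 13.1% in *skpo-1*. *bbs-2*, *bbs-8*, *dyf-13* and *mks-2* were called in *skpo-1* alone. The log2FC was above 0 in both genotypes for 39 of 42 cilium genes, against 44.7% of all genes.

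Whether the genotypes responded differently was tested directly. The log2FC was smaller in *skpo-1* than in N2 for 27 of 42 genes (46.9% of all genes), with a median difference of -0.20, against 0.04 over all genes. That median rested on single libraries, at -0.05 without replicate 2 of *skpo-1* on *E. coli* and -0.38 without replicate 2 of N2 on *E. coli*. The difference itself passed for 0 cilium genes in edgeR's quasi-likelihood test after Benjamini-Hochberg adjustment, beside 0% of all genes. In DESeq2 it also passed for 0 cilium genes. Of all 15685 genes DESeq2 called 10 with a larger and 46 with a smaller response in *skpo-1*. At an unadjusted P below 0.05 in edgeR there were 2, *dyf-13* (above) and *dyf-2* (-0.97 ± 0.45, adjusted P = 0.632). Of all 15685 genes, 459 had a larger and 757 a smaller response in *skpo-1* by that measure. The standard error of the difference ran from 0.19 to 1.71 (median 0.57). Even the 1.37 of *dyf-13* did not pass, and the smallest adjusted P over all genes in edgeR's quasi-likelihood test was 0.0968. A difference in a single gene, also one of that size, could therefore be missed with these libraries.

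Genotype on a given bacterium was compared next, with the same libraries as above. On *E. coli* 0 of 42 cilium genes were called higher or lower in *skpo-1*, beside 0.567% and 0.0765% of all genes. The median log2FC was -0.03, from -0.14 to 0.07 with 1 library left out, and 21 of 42 were above 0 (all genes 45.8%). On *E. faecalis* 0 were called, beside 0.0638% higher and 0.0446% lower, with a median of -0.23 and 13 of 42 above 0 (all genes 47.1%). The median was -0.37 without replicate 1 of N2 on *E. faecalis* and -0.11 without replicate 2. DESeq2 called 0 cilium genes on either. Of all 15685 genes it called 279 higher and 37 lower on *E. coli*, and 76 and 30 on *E. faecalis*. At an unadjusted P below 0.05 in edgeR, 2 were lower on *E. coli*, beside 637 of all 15685 genes. These were *dyf-3* and *dyf-13* (log2FC -1.17 ± 0.49, adjusted P = 0.464). On *E. faecalis* 4 were lower, beside 592 of all genes. These were *dyf-3*, *mks-1* (-1.24 ± 0.46, adjusted P = 0.588), *che-3* (-0.84 ± 0.39, 0.641) and *che-10* (-0.75 ± 0.35, 0.641). All *skpo-1* libraries lay below all N2 libraries for 1 gene on *E. coli*, *dyf-3* (all genes 3.25%), and for 4 on *E. faecalis*, *che-3*, *che-11*, *ift-74* and *ift-139* (all genes 3.76%).

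*dyf-3* (chrIV:3396581-3399231), the IFT38 subunit of IFT-B, did not follow the bacterium. It had 7.55, 6.13, 6.09 and 4.52 CPM in *skpo-1* on *E. faecalis*, against 5.81, 4.46 and 5.73 CPM in *skpo-1* on *E. coli*. In wild type it reached 5.39, 33 and 35.4 CPM on *E. faecalis*, against 6.47, 34.4, 38.6 and 5.96 CPM on *E. coli*. Replicates 2 and 3 of N2 were high on both bacteria, at 32.95 to 38.6 CPM, and the other 10 libraries, the remaining N2 ones included, lay at 4.46 to 7.55 CPM. The log2FC of *skpo-1* over N2 was -2.01 ± 0.68 on *E. coli* and -2.02 ± 0.64 on *E. faecalis* (adjusted P = 0.304 and 0.464) and rests on those 4 libraries. *dyf-17* (chrV:19127525-19131014), a dye-filling gene, showed the reverse. It had 8.22, 10.4, 9.98 and 6.21 CPM in *skpo-1* on *E. faecalis*, against 7.8, 7.2 and 7.27 CPM in *skpo-1* on *E. coli*, and 10.2, 3.93 and 4.15 CPM in N2 on *E. faecalis*, against 7.62, 3.01, 5.46 and 9.34 CPM in N2 on *E. coli*. The 4 libraries high in *dyf-3* were the lowest for *dyf-17*, at 3.01 to 5.46 CPM against 6.21 to 10.4 CPM. The p38 kinase genes *pmk-1*, *pmk-2* and *pmk-3*, named after their values were seen, were also higher in these libraries. They lay at 35.4 to 58.0, 21.3 to 37.1 and 36.4 to 62.5 CPM, against 15.4 to 19.8, 3.71 to 8.84 and 7.87 to 16.1 CPM in the others. In all, 99 of 15685 genes lay higher and 37 lower in the 4 libraries without overlap, 12 and 4 of them by more than 2-fold. *dyf-3*, by whose values the 4 libraries were chosen, and *dyf-17* were the only cilium genes among them. What sets these libraries apart was not tested.

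**Figure D3:**
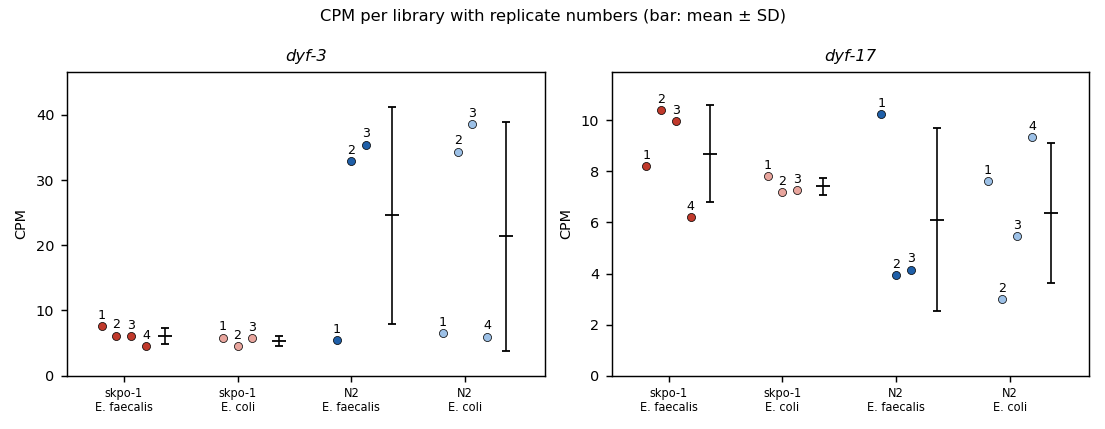
CPM per library (linear axes from 0) of *dyf-3* and *dyf-17* in *skpo-1* on each bacterium (*E. faecalis* left of *E. coli*) and in N2 likewise, each point marked with its replicate number, bars for mean ± SD. Replicates 2 and 3 of N2 lie at 32.95 to 38.6 CPM for *dyf-3* and at 3.01 to 5.46 CPM for *dyf-17* on both bacteria.

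Genes of low level had higher log2FC on *E. faecalis* over the whole table, so the cilium genes were set beside genes of like level. Of the 42, 33 had a mean of 0.5 to 5 CPM. In *skpo-1* 13 of these (39.4%) were called higher, against 16.6% of all 5114 genes of that level, with median log2FC 1.21 against 0.64. In N2 24 (72.7%) were called, against 34.1%, with medians of 1.41 and 0.72. Of the 4 cilium genes between 5 and 50 CPM, 0 were called in *skpo-1* and 1 in N2, against 9.33% and 13.4% of all genes there. Without replicate 2 of N2 on *E. coli*, 20 (60.6%) of the 33 were called in *skpo-1* and 27 (81.8%) in N2, against 22.8% and 43.2% of all genes of that level. These are descriptions, without a test of the list.

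**Figure D4:**
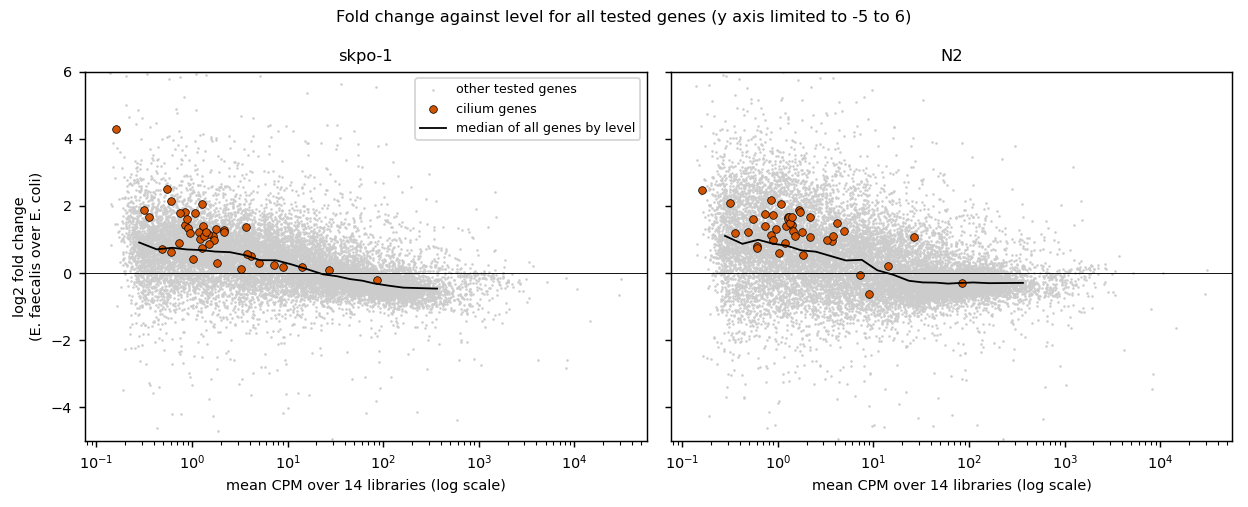
Log2FC of *E. faecalis* over *E. coli* against mean CPM over 14 libraries (log axis) in *skpo-1* (left) and N2 (right), with grey points for other tested genes, orange points for the 42 cilium genes and a line for the median of all genes by level. The line is above 0 at low levels, with medians of 0.64 and 0.72 for genes of 0.5 to 5 CPM, and most cilium genes of that level lie above it.

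Other lists were set beside the same shares of all genes, 10% called higher in *skpo-1* and 19.2% in N2. Of 30 tested cilium genes with other names, 10 were called higher in *skpo-1* and 12 in N2 (medians 1.10 and 1.03), led by the kinesin-II gene *klp-11* (mean 6.91 CPM on *E. faecalis* against 2.20 CPM on *E. coli* in *skpo-1*, and 9.82 CPM on *E. faecalis* against 3.15 CPM on *E. coli* in N2). *osm-5*, *nphp-4* and *arl-3* came next, with log2FC 1.58, 1.53 and 1.33 in N2. *daf-19*, the factor that binds the X-box, was singled out after its values were seen. Its means were 25.9 CPM on *E. faecalis* against 28.5 CPM on *E. coli* in *skpo-1*, and 30.1 CPM on *E. faecalis* against 30.8 CPM on *E. coli* in N2 (log2FC -0.14 and -0.03). Of 23 tested guanylyl cyclase genes named *gcy* with a number, several of which serve sensory neurons, 4 were called higher in *skpo-1* and 14 in N2 (medians 0.75 and 1.38). Without replicate 2 of N2 on *E. coli*, 7 and 8 of the 21 then tested were called. Of 16 sensory signaling genes, 3 in *skpo-1* (18.8%) and 4 in N2 (25%) were called higher, the N2 share near that of all genes (medians 0.08 and 0.52), among them the diacetyl receptor gene *odr-10* (log2FC 1.20 in *skpo-1* and 1.86 in N2), and *gpa-13* was lower in N2 at adjusted P = 0.0425 with log2FC -0.999.

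Lists of other cells differed among themselves. Of 20 pan-neuronal genes, 7 were higher by adjusted P in *skpo-1* (all genes 12.9%) and 13 in N2 (all genes 23.6%), with medians of 0.65 and 0.91. Past the fold required were 1 in *skpo-1*, or 5% beside 10% of all genes, and 8 in N2, or 40% beside 19.2%. The neuropeptide-processing genes *egl-21* and *egl-3* had log2FC 0.94 and 0.85 in *skpo-1* and 1.14 and 1.36 in N2. Of 7 genes of amphid and phasmid glia, 0 were called in *skpo-1* and 3 in N2, *daf-6*, *lin-48* and *ptr-10*. The 28 tested *msp* sperm genes had medians of 0.06 in *skpo-1*, where 0 were called, and 1.64 in N2, where 25 were, and hypodermis genes medians of 0.08 and 0.87.

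Lists of several other tissues had medians below 0. All 19 germline and oocyte genes had a log2FC below 0 in both genotypes (medians -0.57 and -0.44). By adjusted P, 2 were lower in *skpo-1* (1096 of all 15685 genes) and 4 in N2 (2276 of all genes). Without replicate 2 of N2 on *E. coli*, 13 (2804 of all 15289 genes) and 14 (3168 of all genes) of the 19 germline genes were lower. Their summed level was 10545 to 18797 CPM in *skpo-1* on *E. faecalis*, against 18880 to 25381 CPM on *E. coli*, and 12958 to 17512 CPM in N2 on *E. faecalis*, against 11128 to 24213 CPM on *E. coli*. The 9 body muscle genes had medians of -0.99 and -0.40, with summed levels of 1440 to 3441 CPM in *skpo-1* on *E. faecalis*, against 5136 to 6629 CPM on *E. coli*, and 2918 to 3814 CPM in N2 on *E. faecalis*, against 1755 to 6063 CPM on *E. coli*. Zygotic embryo genes had medians of -0.33 and -1.32, with summed levels of 17.1 to 32.6 CPM in *skpo-1* on *E. faecalis*, against 23.3 to 42.7 CPM on *E. coli*, and 8.44 to 25 CPM in N2 on *E. faecalis*, against 23.1 to 40.8 CPM on *E. coli*. Intestine genes had medians of 0.32 and 0.20. The part of these levels in the rise of the cilium genes was not tested.

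**Figure D5:**
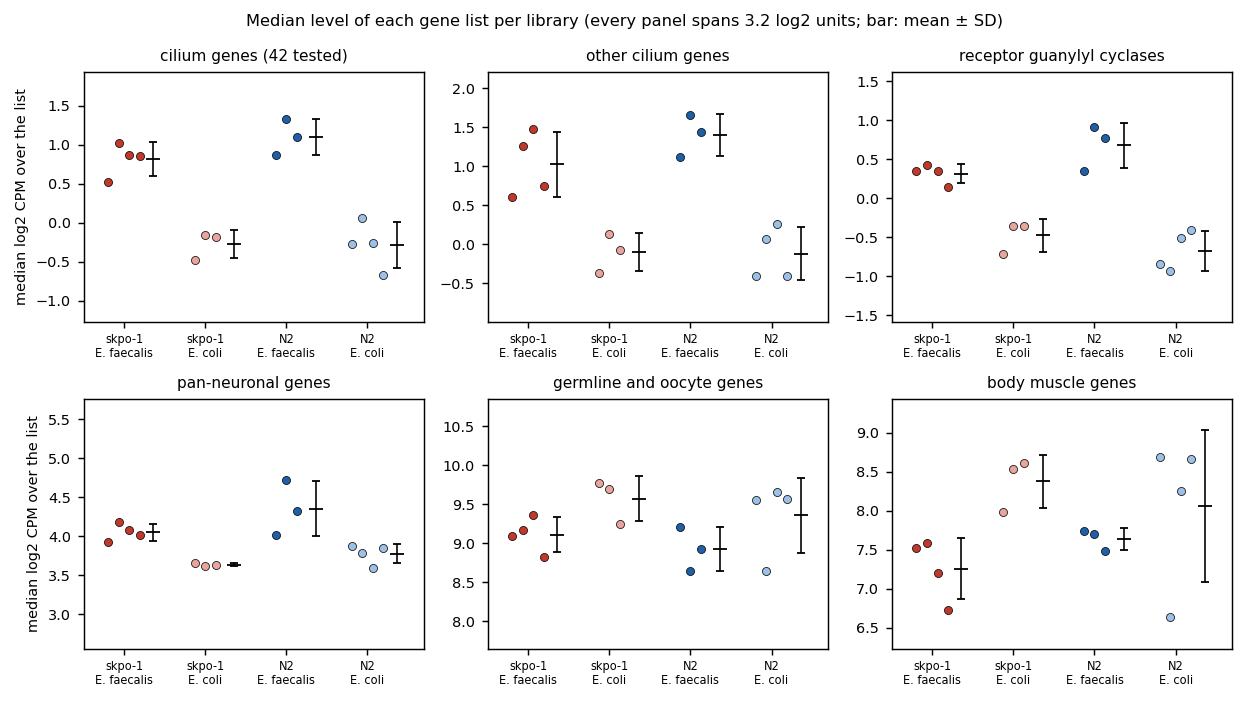
Median log2 CPM over each gene list per library in *skpo-1* on each bacterium (*E. faecalis* left of *E. coli*) and in N2 likewise (points are libraries, bars mean ± SD, every panel spans 3.2 log2 units). The panel headed receptor guanylyl cyclases holds every tested gene named *gcy* with a number. The cilium genes average 0.82 ± 0.22 on *E. faecalis* against -0.27 ± 0.18 on *E. coli* in *skpo-1*, and 1.10 ± 0.23 on *E. faecalis* against -0.28 ± 0.30 on *E. coli* in N2, while germline and body muscle lists are mostly lower on *E. faecalis*.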

How the data were processed

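Total RNA of whole animals was sequenced in 14 libraries, 3 or 4 per group, described as biological replicates. The authors trimmed the reads with Trimmomatic 0.36, quantified them with Salmon 1.2.1 on the WBcel235 transcriptome and summed them per gene. The deposited table holds these estimated counts (expected counts), rounded by the authors. A further table that the authors deposited is a signal, their DESeq2-normalized counts, and served only for length offsets. Whether the libraries keep strand is not given in the sources used here, and 16 cilium genes share 14 to 174 exon bases with another gene.

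Genes were filtered with filterByExpr (minimum count 10, minimum total 15), which left 15685. All 14 libraries were fitted by group in edgeR 4.0.16 (R 4.3.3, TMM scaling, quasi-likelihood test), with Benjamini-Hochberg adjustment over all genes. The spread between replicates set the precision (common coefficient of variation 0.293). No pairing was used in this fit, since replicate numbers are not stated to pair the libraries. Of 19 pairs of libraries with the same replicate number across groups, 9 had residual r above 0.1 (-0.527 to 0.245). Replicates of a group differed beyond counting noise (chi-square over its degrees of freedom, 7.25 to 401). Alternatives were DESeq2 1.42.0 scaling and Wald test, no filter, only the compared groups, a replicate block, length offsets and leaving out each library. The script was tested on simulated data.

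Symbols came from a WormBase name table (19793 of 21982 identifiers), positions and overlaps from the Ensembl annotation of WBcel235. The cilium genes and the comparison lists were chosen with earlier results of these data known. Given per library were up to 12 cilium genes per comparison past an adjusted P of 0.05, in order of P, and in a role group with none the one with the smallest P. *dyf-3* was given per library outside this rule, after its values were seen. Other lists name at most 4 genes in order of adjusted P in N2. A planned search for the X-box was not made, since promoter sequence was not used here.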

Additional observations from a re-analysis of the deposited data

Results flagged for a closer look

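In 3 of the 46 sets of 4 replicates examined, 1 library lay far from the other 3 (chance flags about 1 in 20 such groups). All were in N2 on *E. coli*. *dyf-1* was at 1.78 CPM in replicate 2, against 0.861 to 0.930 CPM in the others. *ift-81* was at 0.553 CPM in replicate 4, against 0.885 to 0.930 CPM. *mks-5* was at 0.246 CPM in replicate 4, against 0.916 to 1.05 CPM. In the fits that left out 1 library each, the N2 response of *dyf-1* had log2FC 1.11 to 1.57, that of *ift-81* 1.11 to 1.67 and that of *mks-5* 1.53 to 1.97, and all 3 passed in each of the 14 fits. No difference between the genotypes' responses passed for a cilium gene.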

How the results depend on the processing

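Cilium genes called higher in N2 on *E. faecalis* numbered 27, and 16 of the 40 then tested when only the compared groups were fitted, beside 13.6% of all genes (29 and 16 by adjusted P alone). Leaving out single libraries gave 15 to 31, with 15 without replicate 2 of N2 on *E. faecalis*. By adjusted P alone, in either direction, it gave 15 to 36, with 19 without replicate 3 of N2 on *E. faecalis*. The 36, without replicate 2 of N2 on *E. coli*, were 35 higher (all genes 30.2%) and 1 lower (3168 of all 15289 genes). In *skpo-1* the count of 14 ran from 1 to 23 by either rule. It was 1 without replicate 1 on *E. coli*, 9 without replicate 2 or 4 on *E. faecalis*, and 23 without replicate 2 of N2 on *E. coli*. The median log2FC in N2 (1.25) ran from 1.17 to 1.50, the highest without that same N2 library. DESeq2's Wald test called 20 in *skpo-1* (all genes 11.2%) and 27 in N2 (all genes 19.1%). All counts of cilium genes for genotype and for the difference between responses were 0 under the alternatives run. No direction reversed for a called gene or a count. Scaling moved the median of all genes by less than 0.1.

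With the replicate number as a block, 13 cilium genes were called in *skpo-1* (all genes 8.19%) and 25 in N2 (all genes 17.3%), the same by adjusted P alone, and 0 for genotype or for the difference between responses. Of the single genes given per library, 3 calls were lost and 2 gained under it. Replicate numbers are not stated to pair the libraries. At 0 to 26 counts per library, *ift-20* and *mks-2* are limited by depth, and *che-1* and *che-6* could not be tested.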
